A study of Mus musculus with 160 samples.

Results

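Collagen chain genes encode the polypeptides that wind in threes into collagen, the main structural protein of the matrix around cells. They were taken as every row of the deposited gene table in which 1 of the comma-separated gene symbols was Col, a number, the letter a and a number. This gave 44 genes of 22866 named genes, with 11 fibrillar chains, 6 basement membrane chains (type IV), 6 type VI chains and 21 other chains. The cells were single bone marrow stromal cells of C57BL/6J mice, 78 cells from old mice of 24 months and 82 cells from young mice of 9 weeks by the sample labels, and the protocol text gives slightly different ages. All cells of both ages had been sorted for the leptin receptor and for CD140a (platelet-derived growth factor receptor alpha) and against CD45, Ter119 and CD31, which mark blood, red and endothelial cells. No allele, transgene or treatment is named for these samples. RNA of each cell was amplified in a microfluidic chip (Fluidigm C1) and sequenced.

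Fibrillar collagens, above all type I with chains from Col1a1 and Col1a2, form the tensile fibres of bone and connective tissue. Type IV forms the sheet-like network of basement membranes, and type VI forms beaded filaments close to the cell surface that link cells to the fibres around them. In bone marrow, stromal cells with the leptin receptor are a known source of matrix and can give rise to bone-forming cells, whose main product is type I collagen.

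Values are FPKM, which divides fragments by transcript length and by the fragment total of the cell, so levels of different genes are compared per length. A gene is called listed in a cell at 1 FPKM or more. No animal is named in the labels. Each age is therefore 1 sample, and differences between the ages could not be checked against replicates or tested. Intervals of shares are exact 95% Clopper-Pearson intervals over cells, which cover counting error only. The table holds no read numbers and the depth is unknown, but old cells listed 193 to 2779 named genes (median 1160) and young cells 129 to 2129 (median 1114.5). A listed 0 may stand for an estimate that failed, since the housekeeping gene Gapdh was listed at 0 in 91 of 160 cells, whereas Actb was listed in all 160. Xist, which marks female cells, was listed in 54 of 78 old and 0 of 82 young cells, and at least 1 of 4 Y-linked genes in 0 old and 34 young cells. The protocol counts separate sets of wells for each age, so age, sex-linked RNA and capture cannot be told apart in any comparison below.

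The summed FPKM of the collagen chains was close between the ages, but the chains made it up in different proportions. FPKM is relative to the fragment total of a cell, so the amount of collagen RNA per cell was not measured. Summed over all 44 chains, FPKM per cell had a median of 141 in old cells (quartiles 71.5 and 267) and 153 in young cells (79.1 and 298). As a share of the FPKM of all named genes in the cell, the medians were 0.193% in old and 0.196% in young cells. The fibrillar sum was lower in old cells, with a median of 55.7 FPKM in old and 104 FPKM in young cells. The type VI sum was higher, with 34.9 FPKM in old and 5.45 FPKM in young cells. Both differences were smaller without cells that listed under 50% of the median number of genes. There the log2 ratio of medians, with 1 added to each, was -0.46 for the fibrillar sum, against -0.90 with all cells. For the type VI sum it was 1.70, against 2.48. A type VI chain was listed in 68 old cells (87.2%, interval 77.7 to 93.7) and 51 young cells (62.2%, interval 50.8 to 72.7). A cell listed a median of 5 chains in old cells (range 0 to 10) and 4 in young cells (range 0 to 11). The basement membrane sum was low in both ages, with medians of 1.77 FPKM in old and 3.11 FPKM in young cells. The remaining chains summed to medians of 3.64 FPKM in old and 0.361 FPKM in young cells.

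**Figure D1:**
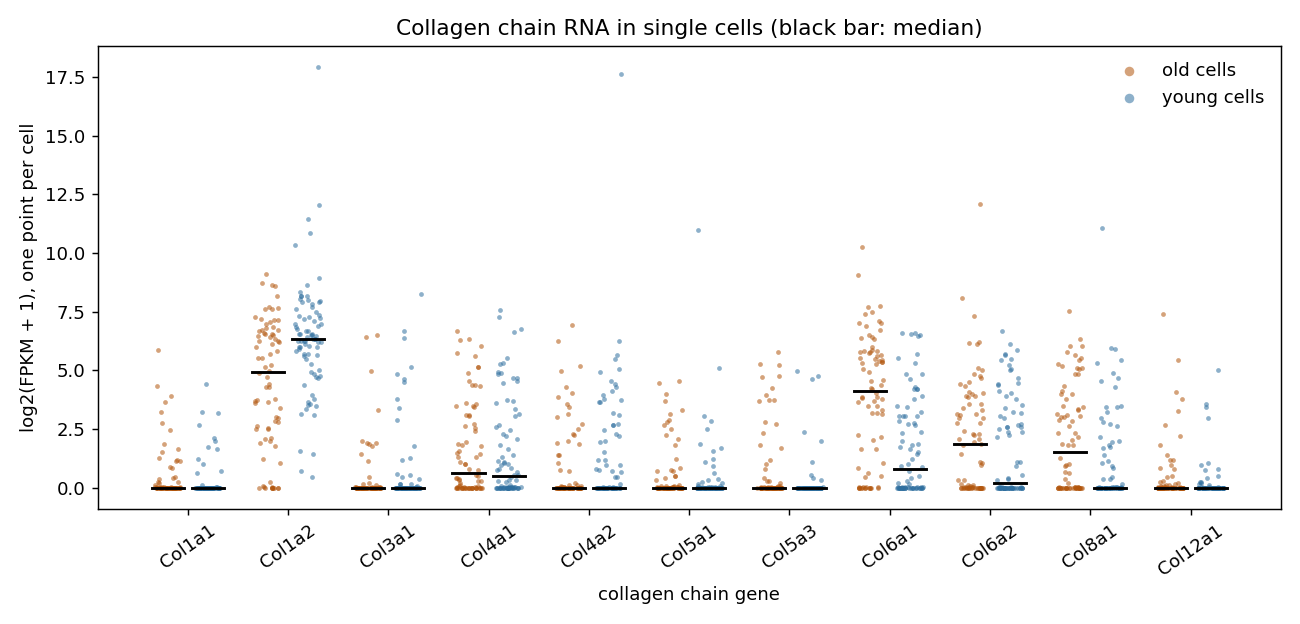
Collagen chain RNA by cell, as log2(FPKM + 1) on the y axis, with old cells left and young cells right for each of 11 chains and a black bar at the median. Col1a2 is the one chain with a high median in both ages (29.5 FPKM in old and 79.9 FPKM in young cells), Col6a1 has a median of 16.4 FPKM in old and 0.746 FPKM in young cells, and single points stand far above the rest for Col1a2, Col4a2, Col5a1, Col6a2 and Col8a1.

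Not every chain of the family was seen at 1 FPKM. Of the 44 chains, 22 reached 1 FPKM in no cell, and 17 of these were listed at 0 in all 160 cells. The 17 were the fibrillar Col11a2, the type IV chains Col4a4, Col4a5 and Col4a6, the type VI chain Col6a6, and Col7a1 (in a joint row with Mir711), Col9a1, Col9a3, Col13a1, Col15a1, Col17a1, Col19a1, Col20a1, Col22a1, Col25a1, Col26a1 and Col28a1. Another 5, Col4a3, Col6a4, Col9a2, Col14a1 and Col24a1, had values above 0 that stayed under 1 FPKM. How many of all named genes stayed under 1 FPKM in every cell was not counted, so these numbers describe the collagen chains only. With 3 cells taken as the limit that a count of 0 allows, up to 3.85% of old and 3.66% of young cells could list such a chain, a limit on listing and not on expression. The exact 95% upper limit for 0 cells is 4.62% for old and 4.40% for young cells. Col2a1, the fibrillar collagen of cartilage, and Col10a1, the collagen of hypertrophic cartilage, were each listed in 0 old cells and 1 young cell. A further 5 chains were listed in few cells and had means under 1 FPKM in both ages. These were Col6a3 (4 old and 2 young cells), Col6a5 (2 and 0), Col11a1 (4 and 6), Col16a1 (3 and 4) and Col23a1 (1 and 2).

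The other 15 chains had a mean of at least 1 FPKM in at least 1 age and are called measured. By the same rule, 15 of 44 chains and 7196 of all 22866 named genes were measured. The 15 chains are not a sample of the family, since a chain could pass through the age in which it is high. By the log2 ratio of mean FPKM with 1 added to each mean, 6 of the 15 were higher by 1 or more in old cells, where 24.5% of 7196 measured genes were, and 6 were lower by 1 or more, against 24.4% of measured genes. The median log2 ratio was 0.43 for the 15 chains and 0.03 for all measured genes. In mean log2(FPKM + 1), where every cell weighs the same, 3 of 15 chains were higher by 0.5 or more in old cells (Col6a1, Col8a1 and Col5a3), against 3.89% of measured genes. By the same measure 2 were lower by 0.5 or more (Col1a2 and Col4a2), against 4.88%. The share of listed cells was higher by 10 percentage points or more in old cells for 4 of 15 chains (Col6a1, Col8a1, Col5a3 and Col6a2), against 4% of measured genes, and lower for 1 (Col1a2), against 5.92%. These 3 measures describe the same cells and are not independent of each other.

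Among the fibrillar chains, Col1a2 stood far above the others in level and was lower in old cells. Col1a2 encodes the alpha 2 chain of type I collagen. Its FPKM ran from 0 over a median of 29.5 to 542 in old cells, against a lowest value of 0.372, a median of 79.9 and a highest of 248401 in young cells. By median it ranked 76th of 22866 genes in old and 31st in young cells. The groups overlapped through most of their range, with 5 young cells above every old cell. It was listed in 65 of 78 old cells (83.3%, interval 73.2 to 90.8) and 80 of 82 young cells (97.6%, interval 91.5 to 99.7). At 10 FPKM or more, the shares were 62.8% of old (interval 51.1 to 73.5) and 91.5% of young cells (interval 83.2 to 96.5). Low and missing values were thus more frequent in old cells, and the gene was listed at exactly 0 in 9 old cells and 0 young cells. Mean log2(FPKM + 1) was 4.40 in old and 6.35 in young cells, a difference of -1.95. Mean FPKM was 73.3 in old and 3252 in young cells, a log2 ratio of -5.45, and without the highest young cell the young mean was 225 and the ratio -1.61. The level of Col1a2 was thus lower in old cells by each measure, and the size of the difference depended on 1 cell and on cells with few genes. Among cells below the lower quartile of gene number Col1a2 was listed in 10 of 21 old and 17 of 19 young cells, so that 11 of the 13 old cells that did not list it were in this range. Without cells that listed under 50% of the median number of genes, the difference of mean log2 was -0.95 and that of the shares -3.45 percentage points.

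The start region of Col1a2 is shown because this chain had the lowest difference of mean log2 in the family. Windows here and below run from 250 bases before to 50 after the annotated start, 5′ to 3′ on the gene's strand, and come from RefSeq on GRCm38.p6, not from the mm9 build named for the deposited values. A window was found for 35 of the 44 chains. Capitals mark matches on either strand to the GC box, spelled GGGCGG, to the CCAAT box, spelled by its own name, and to the TATA box, spelled TATAAA. A match on the opposite strand is printed as its reverse complement.
Col1a2 promoter, GRCm38.p6 chr6:4505368-4505667, plus strand: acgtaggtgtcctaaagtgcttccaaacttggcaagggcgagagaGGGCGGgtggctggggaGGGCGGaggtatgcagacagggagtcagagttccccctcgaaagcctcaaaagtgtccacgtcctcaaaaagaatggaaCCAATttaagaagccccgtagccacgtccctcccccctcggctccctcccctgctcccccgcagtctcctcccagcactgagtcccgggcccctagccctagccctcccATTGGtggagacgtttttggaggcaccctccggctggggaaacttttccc
This window held 2 GC box matches, 2 CCAAT box matches and no TATA box match. Of all 32851 windows in the table, 35.7% held a GC box, 37.4% a CCAAT box and 13.6% a TATA box. Of the 38 windows of the collagen chains, 23 held a GC box, 13 a CCAAT box and 5 a TATA box. A match is a string of letters and not a measured binding site.

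Col1a1, whose product joins that of Col1a2 in type I collagen, was listed in far fewer cells than its partner. Its FPKM had a median of 0 in both ages and a maximum of 57.3 in old and 20.2 in young cells. It was listed in 14 old cells (17.9%, interval 10.2 to 28.3) and 9 young cells (11%, interval 5.14 to 19.8), and was at exactly 0 in 47 old and 65 young cells. Col1a1 and Col1a2 were both listed in 13 old and 9 young cells, whereas 52 old and 71 young cells listed only Col1a2. In the cells that listed both, the median level was 2.66 FPKM for Col1a1 and 87.7 FPKM for Col1a2 in old cells, and 3.39 and 240 FPKM in young cells. In 1 of these 22 cells, a young one, Col1a1 had the higher level. Whether the zeros of Col1a1 are failed estimates was not tested.

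**Figure D2:**
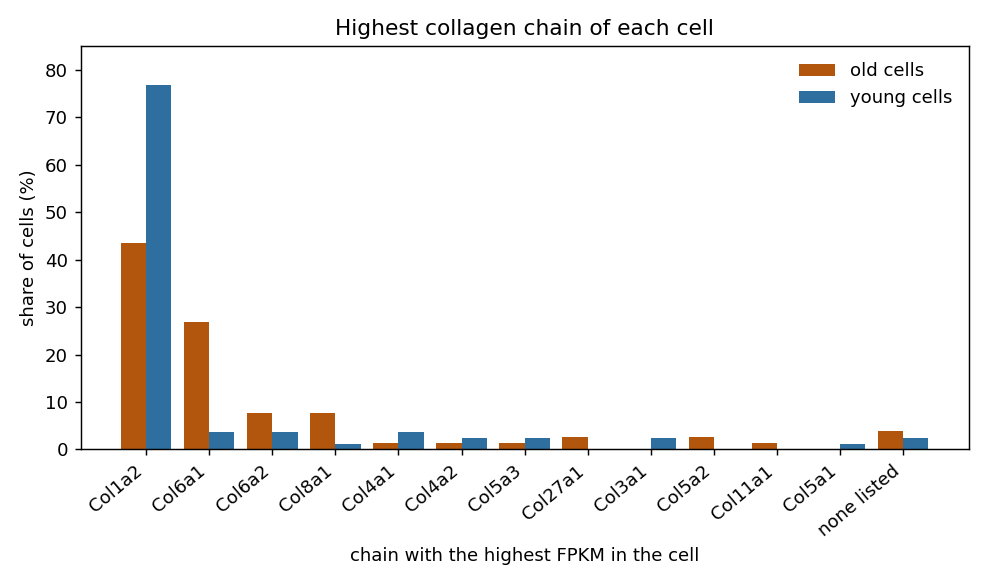
Share of cells (y axis, %) in which each chain had the highest FPKM of all collagen chains, with old cells left and young cells right, and cells without any listed chain at the far right. Col1a2 was the highest chain in 43.6% of old and 76.8% of young cells, and Col6a1 in 26.9% of old and 3.66% of young cells.

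As the chain with the highest FPKM of a cell, Col1a2 was less frequent and Col6a1 more frequent in old cells. Col1a2 was the highest chain in 34 old and 63 young cells. Col6a1 was the highest in 21 old and 3 young cells, and Col6a2 or Col8a1 in 6 old cells each, against 3 and 1 young cells. No chain was listed in 3 old and 2 young cells.

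The minor fibrillar chains were in a minority of cells. Col5a3, a type V chain that can join fibrils with type I, was listed in 16 old cells (20.5%, interval 12.2 to 31.2) and 6 young cells (7.32%, interval 2.73 to 15.2). Its FPKM had a median of 0 in both ages and a maximum of 54.3 in old and 30.4 in young cells, and 3 old cells lay above every young cell. The difference of mean log2 was 0.52, and it was 0.35 in cells within the quartiles of gene number. Its share difference of 13.2 percentage points was 8.86 within those quartiles and 9.16 at 10 FPKM. Col5a1, the main type V chain, was listed in 14 old cells (17.9%, interval 10.2 to 28.3) and 10 young cells (12.2%, interval 6.01 to 21.3). Its FPKM had a lowest value and a median of 0 in both ages and a maximum of 22.1 in old and 1990 in young cells, with 2 young cells above every old cell. The mean was 1.59 FPKM in old and 25.0 FPKM in young cells, and the difference of mean log2 was 0.17. Col5a2, its partner, was listed in 18 old and 22 young cells with maxima of 159 and 119 FPKM. Only 2 old cells and no young cell listed both Col5a1 and Col5a2. Col3a1, the chain of type III collagen that runs with type I in soft tissue and reticular fibres, was listed in 11 old (14.1%) and 13 young cells (15.9%), with maxima of 90.7 and 302 FPKM. Col27a1, a fibrillar collagen of cartilage, was listed in 18 old and 16 young cells. The intervals of the shares overlapped between the ages for all of these chains, Col5a3 included.

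Of the type IV chains, Col4a1 and Col4a2 were found in both ages and showed no shared direction. Their products form the common network of nearly all basement membranes. Col4a1 was listed in 37 old cells (47.4%, interval 36 to 59.1) and 33 young cells (40.2%, interval 29.6 to 51.7). Its FPKM had a median of 0.554 and a maximum of 102 in old cells, against 0.407 and 187 in young cells, with 3 young cells above every old cell and overlap below that. Col4a2 was listed in 21 old cells (26.9%, interval 17.5 to 38.2) and 28 young cells (34.1%, interval 24.0 to 45.4). Its median was 0 in old and 0.00583 FPKM in young cells, and its maximum 123 in old and 202810 FPKM in young cells. The difference of mean log2 was 0.08 for Col4a1 and -0.52 for Col4a2, and the second was -0.32 with all cells brought to 1 common sum.

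Col4a1 and Col4a2 are neighbours that are read away from each other, and their start regions are shown because the pair can be set side by side cell by cell. The windows lie on opposite strands and share 78 bases.
Col4a1 promoter, GRCm38.p6 chr8:11312777-11313076, minus strand: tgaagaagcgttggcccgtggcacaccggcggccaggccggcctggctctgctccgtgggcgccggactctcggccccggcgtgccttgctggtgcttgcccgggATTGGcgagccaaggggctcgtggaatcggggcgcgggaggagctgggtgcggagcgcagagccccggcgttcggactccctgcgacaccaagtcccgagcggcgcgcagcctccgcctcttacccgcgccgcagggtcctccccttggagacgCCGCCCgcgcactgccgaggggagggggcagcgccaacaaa
Col4a2 promoter, GRCm38.p6 chr8:11312555-11312854, plus strand: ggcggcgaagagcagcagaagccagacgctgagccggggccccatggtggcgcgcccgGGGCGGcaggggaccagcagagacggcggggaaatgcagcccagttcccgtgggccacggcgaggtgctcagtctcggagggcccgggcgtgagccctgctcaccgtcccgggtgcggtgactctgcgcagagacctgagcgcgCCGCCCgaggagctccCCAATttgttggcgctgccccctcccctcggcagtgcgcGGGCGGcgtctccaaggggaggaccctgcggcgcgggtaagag
The Col4a1 window held 1 GC box match and 1 CCAAT match, and the Col4a2 window 3 and 1, with no TATA box match in either. The GC box match of Col4a1 lies in the shared bases and is the same site as 1 of the 3 of Col4a2. The chains were often not listed together. Both were listed in 15 old and 14 young cells, Col4a1 alone in 22 old and 19 young cells, Col4a2 alone in 6 old and 14 young cells, and neither in 35 old and 35 young cells. Of the cells listing Col4a2, 71.4% of old and 50% of young cells also listed Col4a1. At FPKM above 0, both were present in 30 old and 37 young cells.

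Type VI collagen was higher in old cells, most of all through Col6a1. Col6a1 encodes the alpha 1 chain, which is needed for a type VI molecule. Its FPKM ran from 0 over a median of 16.4 to 1219 in old cells, against 0, 0.746 and 95.4 in young cells. In old cells 11 values lay above every young cell, and below that the groups overlapped. It was listed in 58 old cells (74.4%, interval 63.2 to 83.6) and 38 young cells (46.3%, interval 35.3 to 57.7), and at 10 FPKM or more in 61.5% of old (interval 49.8 to 72.3) and 22% of young cells (interval 13.6 to 32.5). Mean FPKM was 59 in old and 10.8 in young cells, a log2 ratio of 2.35 that became 1.93 without the highest cell. The difference of mean log2 was 2.04, and it ran from 1.98 to 2.90 over the alternatives tried. Within the quartiles of gene number (636.75 to 1373.5 genes), Col6a1 was listed in 30 of 37 old cells and 21 of 43 young cells. The gap in the share of Col6a1 was present at each range of gene number and narrowest at the top. Below the lower quartile it was listed in 10 of 21 old and 1 of 19 young cells, and above the upper quartile in 18 of 20 old and 16 of 20 young cells. The start region of Col6a1 is shown as that of the chain with the largest difference toward old cells.
Col6a1 promoter, GRCm38.p6 chr10:76725995-76726294, minus strand: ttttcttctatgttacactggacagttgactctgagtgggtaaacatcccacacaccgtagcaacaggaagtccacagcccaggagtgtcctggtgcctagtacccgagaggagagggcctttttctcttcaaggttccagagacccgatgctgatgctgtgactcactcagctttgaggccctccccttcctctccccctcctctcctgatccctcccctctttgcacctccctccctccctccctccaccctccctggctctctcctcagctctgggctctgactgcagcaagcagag
It held no match to any of these motifs.

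Col6a2, which encodes the alpha 2 chain, differed less than Col6a1. It was listed in 43 old cells (55.1%, interval 43.4 to 66.4) and 36 young cells (43.9%, interval 33 to 55.3). Its FPKM had a median of 2.61 and a maximum of 4332 in old cells, against 0.142 and 102 in young cells. The log2 ratio of means of 2.77 was the largest of the family toward old cells, but 70.4% of the summed FPKM lay in 1 old cell and the ratio was 0.53 without it. The difference of mean log2 was 0.44, and it ran from 0.15 within the quartiles of gene number to 0.77 with 0.1 added. Without cells over 3 times the median summed FPKM, this difference and the log2 ratio of means were both 0.17. The share difference of 11.2 percentage points was 5.03 at 10 FPKM and 7.54 within the quartiles of gene number. Both chains were listed in 33 old and 23 young cells, Col6a1 alone in 25 old and 15 young cells, and Col6a2 alone in 10 old and 13 young cells. In cells listing both, the median level of Col6a1 was 23.2 FPKM in old and 9.90 FPKM in young cells, and that of Col6a2 was 8.79 and 9.60 FPKM. Col6a3, which encodes the large alpha 3 chain, was listed in 4 old and 2 young cells with maxima of 14.3 and 7.27 FPKM, although Col6a1 was in 58 and 38.

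Among the other chains Col8a1 had the highest levels. Col8a1 and Col8a2 encode the 2 chains of type VIII, a short collagen that forms hexagonal networks. Col8a1 was listed in 40 old cells (51.3%, interval 39.7 to 62.8) and 26 young cells (31.7%, interval 21.9 to 42.9). Its FPKM had a median of 1.95 and a maximum of 184 in old cells, against 0.00449 and 2121 in young cells, with 1 young cell above every old cell. The mean was 13 in old and 30.5 in young cells, a log2 ratio of -1.17, but without the highest cell the young mean was 4.70 and the ratio 1.29. The difference of mean log2 was 0.91, and it ran from 0.93 to 1.61 over the alternatives. Within the quartiles of gene number it was listed in 19 of 37 old and 12 of 43 young cells. Col8a2 was listed in 2 old and 0 young cells, with a maximum of 92.2 FPKM in old and 0.0640 FPKM in young cells.
Col8a1 promoter, GRCm38.p6 chr16:57754688-57754987, minus strand: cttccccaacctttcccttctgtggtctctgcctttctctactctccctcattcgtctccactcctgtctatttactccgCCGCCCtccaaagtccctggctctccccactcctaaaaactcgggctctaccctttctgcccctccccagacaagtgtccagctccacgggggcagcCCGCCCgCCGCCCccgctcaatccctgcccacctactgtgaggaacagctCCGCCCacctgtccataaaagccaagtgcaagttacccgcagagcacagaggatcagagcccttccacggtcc
The start region of Col8a1, shown because its direction depended on 1 cell by the mean but not by the share, held 4 GC box matches, all on the opposite strand, and no match to the other motifs.

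Col12a1, which encodes a collagen that sits on the surface of type I fibrils, was listed in 11 old cells (14.1%, interval 7.26 to 23.8) and 5 young cells (6.10%, interval 2.01 to 13.7), with a maximum of 168 in old and 31.3 FPKM in young cells. Its log2 ratio of means of 1.32 became 0.37 without the highest cell, an old one. Col18a1, a collagen of the basement membrane zone whose end fragment is endostatin, was listed in 3 old and 4 young cells.

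**Figure D3:**
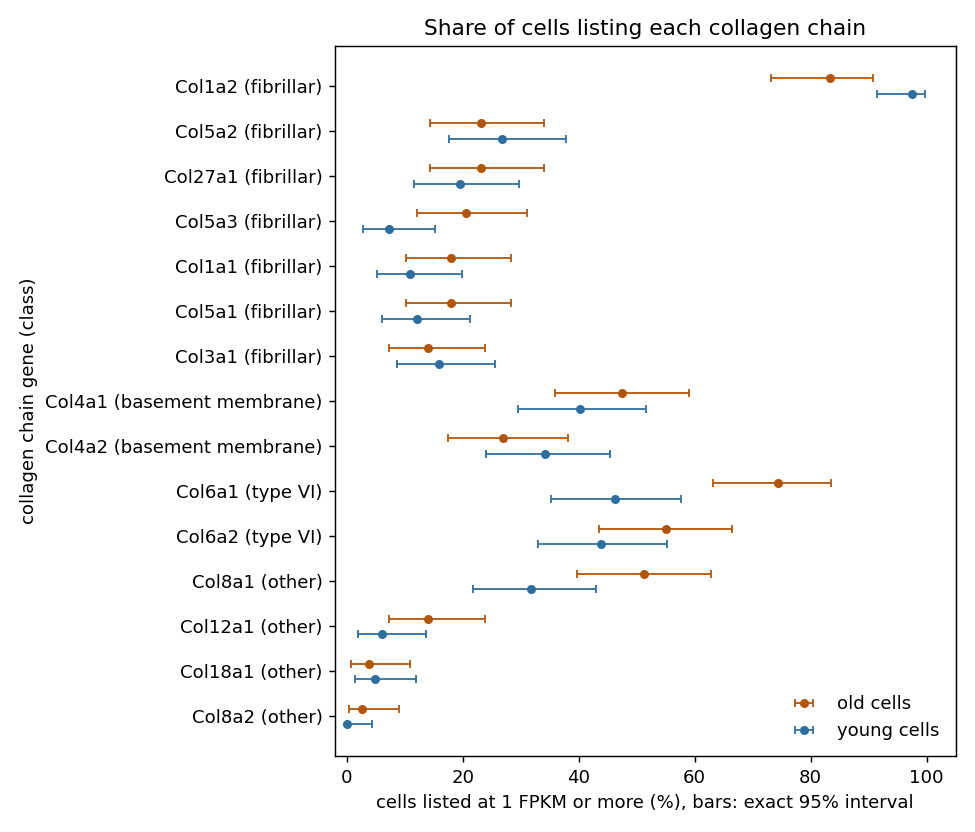
Share of cells listing each of the 15 measured chains at 1 FPKM or more (x axis, %), with old cells above young cells in each row and bars for the exact 95% interval. Col1a2 was listed in 83.3% of old and 97.6% of young cells and Col6a1 in 74.4% of old and 46.3% of young cells, whereas Col4a1, with 47.4% and 40.2%, has overlapping intervals.

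A few single cells held most of the summed FPKM of several chains. For 8 of the 15 measured chains, over 50% of the FPKM of all 160 cells lay in 1 cell, and this was so for 32.5% of all measured genes. The count was 4 with all cells brought to 1 common sum, and it was 3 within old and 6 within young cells. The share of all measured genes was not computed for these settings. The median share of the highest cell was 50.7% for the 15 chains and 36.4% for all measured genes. For Col4a2, young cell 67 held 99.6% of the sum, and its value of 202810 FPKM was 1652 times the next highest, which was 123 FPKM in an old cell. For Col1a2, young cell 57 held 91.2% with 248401 FPKM, against 4177 FPKM in the next cell. In young cell 57 Col1a2 alone made up 58.5% of the FPKM of all named genes. For Col5a1, young cell 45 held 91.4% with 1990 FPKM. Col6a2 had 70.4% in old cell 46, Col8a1 60.4% in young cell 70, Col8a2 94.1% in old cell 10, Col12a1 50.7% in old cell 59 and Col18a1 52.7% in young cell 58. Col8a2 and Col18a1 counted as measured only through their highest cell. Without it, the mean was 0.0731 FPKM in old cells for Col8a2 and 0.876 FPKM in young cells for Col18a1. The 8 chains dominated by 1 cell thus had 8 different highest cells. Of these cells, old cell 10 was also the highest for Col1a1 (57.3 FPKM) and old cell 59 for Col5a2 (159 FPKM).

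**Figure D4:**
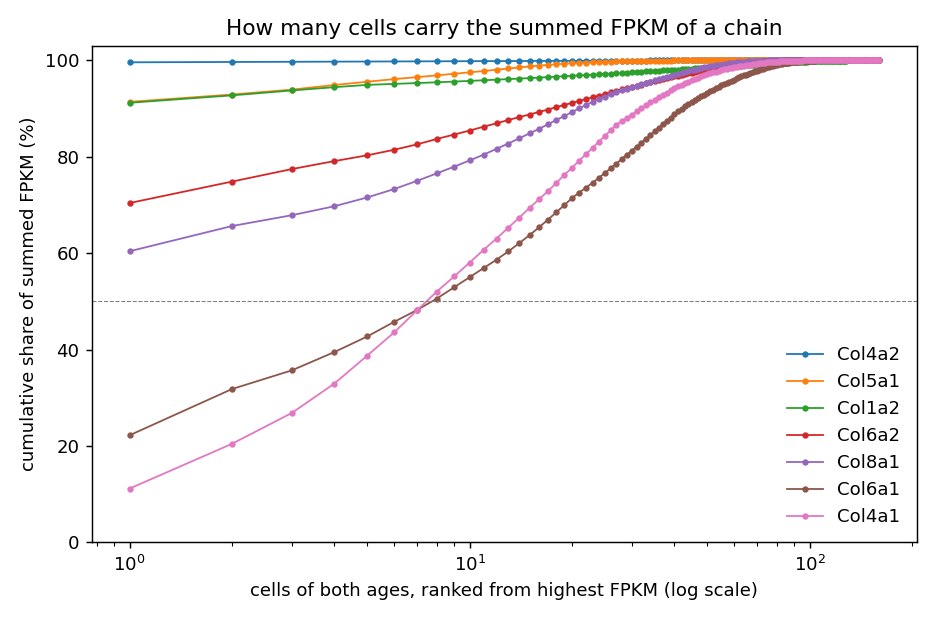
Cumulative share of the summed FPKM (y axis, %) against cells of both ages ranked from the highest value (x axis, log scale) for 7 chains, with a dashed line at 50%. Col4a2, Col5a1 and Col1a2 start above 90% with their first cell, while Col6a1 and Col4a1 reach 50% with 8 cells each.

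The dominant cells differed in how unusual they were as a whole. Young cell 67 had a summed FPKM of named genes 90.2 times the median cell, the second highest of all, and listed 474 genes. Young cell 57 was at 5.70 times the median with 543 genes, old cell 46 at 9.14 times with 313 genes and young cell 70 at 5.16 times with 535 genes. Young cell 45, which held Col5a1, was at 0.485 times the median with 700 genes. Old cell 10, old cell 59 and young cell 58 were at 1.33, 1.78 and 1.57 times the median with 1249, 1189 and 1115 genes. The part of fragment numbers in these values was not tested. Without the highest cell of each chain, the number of chains past a log2 ratio of 1 was 2 toward old (Col6a1 and Col8a1) and 1 toward young cells (Col1a2). The share of all measured genes past it was not computed for this setting. Without its highest cell, Col4a2 had a mean of 4.86 FPKM in old and 5.31 FPKM in young cells. Its log2 ratio was then -0.11, against -8.73 with all cells. Col5a1 had a ratio of 0.54, against -3.33 with all cells.

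Other chains were spread over more cells. It took 8 cells to hold 50% of the summed FPKM of Col6a1, and 8 for Col4a1. Within old cells 10 cells held 50% of the FPKM of Col1a2 and its highest cell held 9.48%, whereas within young cells 1 cell held 93.2%. For Col8a1 the highest cell held 18.2% within old and 84.8% within young cells.

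**Figure D5:**
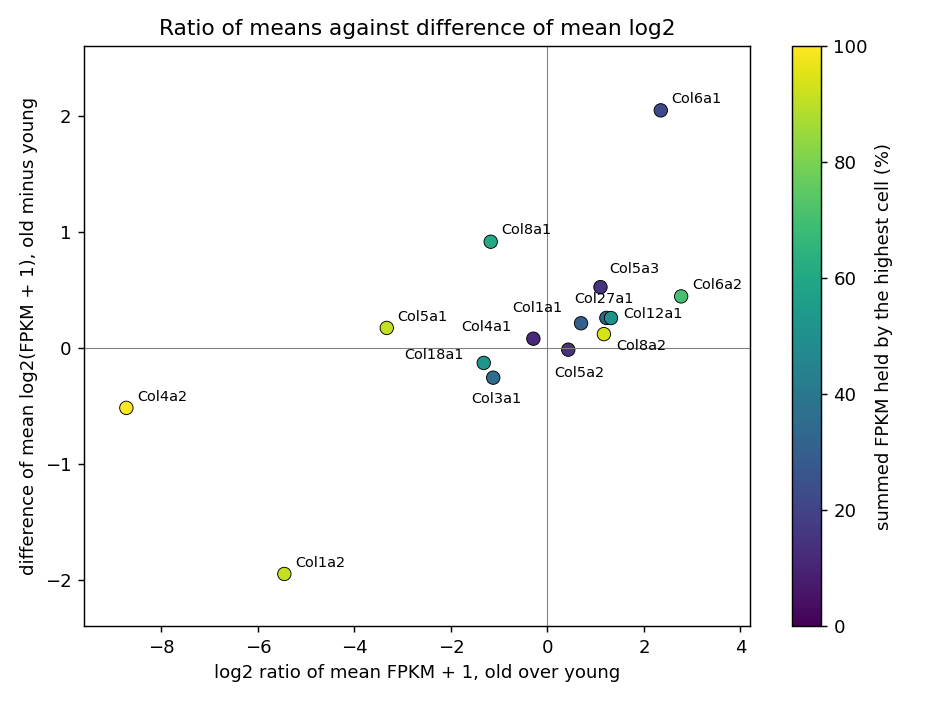
Log2 ratio of mean FPKM, old over young (x axis), against the difference of mean log2(FPKM + 1), old minus young (y axis), for the 15 measured chains, coloured by the share of summed FPKM in the highest cell. Col6a1 is high on both axes (2.35 and 2.04) and Col1a2 low on both (-5.45 and -1.95), while Col8a1 (-1.17 and 0.91) and Col5a1 (-3.33 and 0.17) have opposite signs.

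The genes that modify, export, process and bind collagen were followed as a list of 43, all found in the table, 6 of them under older symbols. Of these, 27 were measured, 5 were higher in old cells by 0.5 or more in mean log2, and 3 were lower, where 3.89% and 4.88% of all measured genes were. The median difference was 0.06 for the list and -0.01 for all measured genes. Plod2, P3h2 and Adamts14 are named below because of their values, after these had been seen. Values in parentheses after the cells below are differences of mean log2, old minus young.

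The hydroxylases and their helpers, which modify proline and lysine of new chains, had 9 measured of 13 genes, with 3 higher and 1 lower. Crtap, a subunit of the prolyl 3-hydroxylase complex, was listed in 24.4% of old and 12.2% of young cells, with a difference of mean log2 of 0.83. Plod2, the lysyl hydroxylase of the chain ends, was listed in 19 old and 4 young cells (0.75), and P3h2 (in the table as Leprel1) in 23 and 15 (0.54). For Plod2, 98.7% of the summed FPKM lay in 1 cell, and its log2 ratio of means was 7.46. In the same complex as Crtap, the proline isomerase Ppib was listed in 48.7% of old and 56.1% of young cells (-0.50). Colgalt1, a galactosyltransferase of collagen, was the 1 measured gene of 2 in its group and was listed in 12 old and 11 young cells.

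Serpinh1, the collagen-specific chaperone Hsp47, was the 1 gene past 0.5 among 4 measured genes of 5 for folding and export. It was listed in 40 old cells (51.3%, interval 39.7 to 62.8) and 25 young cells (30.5%, interval 20.8 to 41.6), with mean FPKM of 14.2 in old and 4.88 in young cells and a difference of mean log2 of 1.12. Ctage5, an export factor, was listed in 7 old and 6 young cells.

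Of the 8 genes for procollagen processing, 4 were measured, and all 4 had lower mean log2 in old cells. By 0.5 or more, 2 were lower, where 4.88% of all measured genes were. The median difference of all measured genes was -0.01. Adamts2, the protease that removes the amino-terminal propeptide, was listed in 16 old cells (20.5%, interval 12.2 to 31.2) and 36 young cells (43.9%, interval 33 to 55.3), with a difference of -0.86. Pcolce, an enhancer of carboxy-terminal processing, was listed in 34.6% of old and 40.2% of young cells (-0.52), and Bmp1, the protease it aids, in 7.69% and 13.4% (-0.26). Adamts14, a relative of Adamts2, was listed in 4 old and 13 young cells.

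Of the cross-linking oxidases, 4 of 5 genes were measured and 1 was past 0.5. Lox, lysyl oxidase, was listed in 41 old cells (52.6%, interval 40.9 to 64.0) and 20 young cells (24.4%, interval 15.6 to 35.1), with a difference of 1.16. Its log2 ratio of means was -5.35, with 97% of the summed FPKM in 1 cell, so the 2 measures had opposite signs as for Col8a1. Loxl1 was listed in 34 old and 43 young cells (-0.14).

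No collagen receptor of the 5 measured, of 10, was past 0.5. Ddr2, the receptor kinase for fibrillar collagen, was listed in 41% of old and 29.3% of young cells (0.26), the integrin chain Itga1 (in a joint row with Pelo, so not its value alone) in 46.2% and 46.3% (0.06) and its partner Itgb1 in 47.4% and 45.1% (-0.08).

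Most markers of endothelial, mural and blood cells were listed at 0, which in this table does not show that their RNA was missing. Of the 5 stroma markers, Cxcl12 was listed in 77 old and 82 young cells (-0.04), Lepr in 71 and 78 (-0.19) and Pdgfra, which encodes the gated CD140a, in 30 and 28 (0.07). Kitl, which encodes stem cell factor, was lower in old cells and was listed in 62 old and 78 young cells (-1.38), and Adipoq, which encodes adiponectin, in 68 and 78 (-0.49). No endothelial marker was listed in any cell, with Pecam1, Cdh5, Kdr and Emcn at 0 in all cells. In the pericyte and smooth muscle list Acta2, Myh11, Cspg4 and Mcam were at 0 in all cells, and 1 of 5 markers was listed, in 2 young cells. Of the Schwann cell markers Sox10 was at 0 in all cells, but S100b was in 27 old and 19 young cells, and the summed level of the list ran from 0 to 335 FPKM in old and from 0 to 3352 FPKM in young cells. Of the blood cell list only Hba-a1 (in a joint row with Hba-a2) was listed, in 1 old and 1 young cell, and Cd3e and Itgam were at 0 in all cells. The chondrocyte list had 2 of 5 markers listed, in 8 old and 5 young cells, with Acan, Matn3 and Cnmd at 0 in all cells and summed levels of up to 41.3 FPKM in old and 110 FPKM in young cells.

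Among fibroblast and osteoblast markers, which marrow stroma can share, 3 genes lay past 0.5 in mean log2. Of 7 fibroblast markers 4 were measured, and 1 was higher in old cells (Dcn, 1.76) and 1 lower (Lum, -0.67). Of 6 osteoblast markers 5 were measured, and none was higher and 1 lower (Ibsp, -1.25). Of all measured genes, 3.89% were higher and 4.88% lower. Of the fibroblast markers 4 were listed in old and 3 in young cells, and S100a4, Pi16 and Dpt were at 0 in all cells. Their summed level ran from 0 over a median of 30.9 to 6756 FPKM in old cells, against 0, 7.93 and 9445 FPKM in young cells. The fibroblast list includes Pdgfra, the gated gene also given among the stroma markers. For Pdgfra, 1 cell held 85.9% of the summed FPKM, with means of 9.94 in old and 125 FPKM in young cells. The highest young sum of the list was thus nearly that of Pdgfra alone. Dcn, the fibril-binding proteoglycan decorin, was listed in 52 old and 34 young cells and Lum, which encodes lumican, in 11 and 22. Old cells listed 5 of 6 osteoblast markers and young cells 4. The summed level ran from 0 over a median of 280 to 25217 FPKM in old cells, against 0.0698, 534 and 26673 FPKM in young cells. Ibsp, bone sialoprotein, was listed in 69 old and 81 young cells, and Sp7, the osteoblast transcription factor, in 4 and 4. No osteoblast marker other than Ibsp was listed in more than 5 old or 7 young cells. In most cells the summed level of the osteoblast list was thus nearly that of Ibsp alone. The part of these cell type markers in the differences of Col1a2, Col6a1 and Col8a1 was not tested.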

How the data were processed

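The authors deposited 1 table of FPKM values with genes in rows and cells in columns. Cufflinks 2.1.1 and the mm9 build are named, per the submitters' processing notes. The aligner is not given in the sources used here. Of 31199 rows, 7751 carried no gene name and were left out, and rows of 468 repeated names were summed; no collagen name was repeated. Groups came from the age label. The authors set aside wells with no, several or shrunken cells under the microscope, per the labels' protocols. Of 96 wells an age this left 79 for old and 83 for young cells, of which 78 and 82 were analysed. Doublets were not called, and no 2 columns were identical.

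The values are not counts, and each age is 1 sample, so no count model and no p-value was used. Means, log2 ratios with a pseudocount of 1, which understates low genes, mean log2(FPKM + 1) and shares listed at 1 FPKM were computed over the whole table (Python 3.11.15, pandas 2.3.3, scipy 1.17.1). Ratios and mean log2 were checked by multiplying the values of some genes in randomly split cells, which tests the arithmetic only. That check left out cells over 3 times the median summed FPKM and genes under a mean of 10 FPKM. Chains in full had a mean of 10 FPKM and 10% of cells in an age, or the 2 highest means of a class, or a share difference of 10 percentage points; in the list of other collagen genes, the largest and smallest difference and the most cells per role. Col1a1 falls outside this rule and is given as the partner of Col1a2, chosen after its values were seen. The members, lists and thresholds were chosen with earlier results of these data known. Alternatives changed pseudocount, filter, mean, scaling, listing level and set of cells. Some marker genes of other cell types are not reported here.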

Additional observations from a re-analysis of the deposited data

How the results depend on the processing

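No paired analysis was possible because cell numbers are shared between the ages only as names and pair nothing. Shares of all measured genes were computed with all cells and the main settings only, so the counts below stand without such a share. The number of measured chains was 14 after rescaling and 16 within quartiles of gene number, against 15 with all cells. The ratio of means depended most on the processing. With the highest cell of each gene left out, 2 chains were called higher and 1 lower in old cells, with trimmed means 3 and 1, with all cells brought to 1 common sum 3 were higher, with high-sum cells left out (over 3 times the median) 3 were lower, and at a mean of 10 FPKM 7 chains were measured, 2 were higher and the median was -1.17. With no filter 27 chains had a value. Col8a1 turned to 1.29, 1.41, 0.34 and 1.41 (highest cell left out, trimmed, rescaled, high-sum cells left out), and Col5a1 to 0.54 and 0.65 (the first 2 of these). For mean log2, 6 chains were higher with 0.1 added, and 1 was lower, against 2 before, with low gene numbers left out, within quartiles, rescaled and without high-sum cells. For shares, 7 were higher and 2 lower above 0 FPKM, 2 higher at 10 FPKM, 7 higher and 0 lower with low gene numbers left out, and 0 lower within quartiles. Removing cells by summed FPKM for shares was chosen after seeing the data. Other collagen genes gave 9 higher with 0.1 added and 1 lower with low gene numbers left out. A single cell dominated 3 chains within old cells and 4 after rescaling. The log2 ratio of median sums, with 1 added to each, was 1.70 for type VI with low gene numbers left out, against 2.48 with all cells. For other chains it was 2.52, against 1.77. With all cells the young median of the other chains was 0.361 FPKM, below the 1 added, which makes their ratio smaller. Above 0 FPKM, Col1a1 and Col1a2 were together in 31 old and 17 young cells, Col4a1 and Col4a2 in 30 and 37 and Col6a1 and Col6a2 in 50 and 39. At 10 FPKM these were 3 and 1, 4 and 5, and 13 and 5. The cause of these shifts was not tested, but part of them follows by construction. A lower or higher listing level admits more or fewer cells. Leaving out the highest cell lowers the mean of the age that holds it. Adding 0.1 in place of 1 gives low values more weight in log2, while the limits for a call stayed the same. Col6a1 and Col1a2 kept their direction by all 3 measures under every alternative run for them. Depth is unknown, so listing cannot be separated from fragment number.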
